A study of Bos taurus with 12 samples.

Results

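Genes of cholesterol and fatty acid synthesis were examined in embryonic stem cells of the bovine line F7, whose poly-A RNA was sequenced in 12 libraries. The set was defined by gene symbol and held 32 genes, of which 18 encode enzymes of the sterol branch, 9 enzymes of the fatty acid branch and 5 regulators or carriers of the SREBP system. Entrez identifiers placed 31 of the 32 among the 18885 entries of the count table that were kept. STARD4, a sterol carrier, was not matched and is not analysed here. All 31 were expressed above the filter on low counts and were tested. The labels sort the libraries into 4 groups of 3, called MC, then 1/7MC, then 1/7MC+Pyr, and lastly 1/7MC+Pyr+FGF. All 4 groups were wild type, the treatment of the MC group was labelled NC, and each of the other groups carried its own name as its treatment. The series title places the work on feeder layers of low density and names pyruvate and a recombinant human FGF (the basic fibroblast growth factor), so the groups bear on how the cells respond to these agents on such layers. The labels do not spell out MC, and they give no dose, no time, no origin of the feeder cells and no step that removes them before RNA extraction. F7 is a single line, and nothing says that the replicates were separate cultures, so each p-value speaks of the spread among these libraries only, which may be technical.

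Sterol synthesis starts from acetyl-CoA. The mevalonate steps build isoprenoid units and join them into farnesyl pyrophosphate, and the later steps turn that into squalene, lanosterol and cholesterol. Fatty acid synthesis draws on the same acetyl-CoA, which ACLY makes from citrate and ACSS2 from acetate, and then builds, elongates and desaturates acyl chains. Both branches are transcribed under the SREBP factors, encoded by SREBF1 and SREBF2. SCAP escorts these factors to the Golgi when sterols are scarce, and the INSIG proteins hold them in the endoplasmic reticulum when sterols are plentiful. INSIG1 is itself an SREBP target.

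Total counts lay between 27373759 and 44440972 per library. Levels are given as CPM, counts scaled to a common library size after trimmed-mean (TMM) normalisation, and as RPKM, the same per kilobase of gene length, where genes are compared with each other. Fold changes are log2 values of the first group over the second. Their standard errors (SE) were derived from the edgeR F test, whose spread was estimated over all groups together. A gene is called changed when its edgeR p-value, adjusted over all 13920 genes tested, is under 0.05. Reads of MC replicates 2 and 3 had been assigned to genes by gene models that differ from those of the other 10 libraries. Of 128 Ensembl identifiers shared by several entries, 80 to 86 had entries with unequal counts in each of those 10 libraries, and 0 had in MC replicates 2 and 3. For this reason a second fit, of 14361 genes, kept only replicate 1 of MC, whose spread was then taken to equal that within the other groups. All 8 embryonic stem cell markers looked for were detected, with POU5F1 at 671 to 1390 CPM. The 26 fibroblast and feeder markers with an entry summed to 9188 to 9457 CPM in MC, 25913 to 35375 in 1/7MC, 30823 to 46223 in 1/7MC+Pyr and 20965 to 28871 in 1/7MC+Pyr+FGF. Adipocyte markers summed to at most 2.20 CPM, with LEP at 0 in all 12 libraries. Among 5 hepatocyte markers APOB was at 0 in all 12 libraries, ALB at most 0.722 CPM and TTR at most 1.70 CPM, while APOA1 reached 556 CPM.

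The 31 genes together took 1.14% to 1.22% of the counts in MC, 0.788% to 0.840% in 1/7MC, 1.06% to 1.15% in 1/7MC+Pyr and 1.19% to 1.51% in 1/7MC+Pyr+FGF. The 1/7MC libraries were thus the lowest and lay apart from all others. Per unit of length, SCD, which introduces the first double bond into saturated acyl chains, had the highest level with a mean RPKM of 360 over the 12 libraries. FASN, the fatty acid synthase, followed at 252 and HMGCS1, the synthase that commits acetyl units to the sterol route, at 184. The lowest were PMVK at 9.89, HSD17B7 at 14.2 and TM7SF2 at 18.4 RPKM, all of them sterol enzymes. SREBF2 at 108 RPKM stood above SREBF1 at 47.2.

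**Figure D1:**
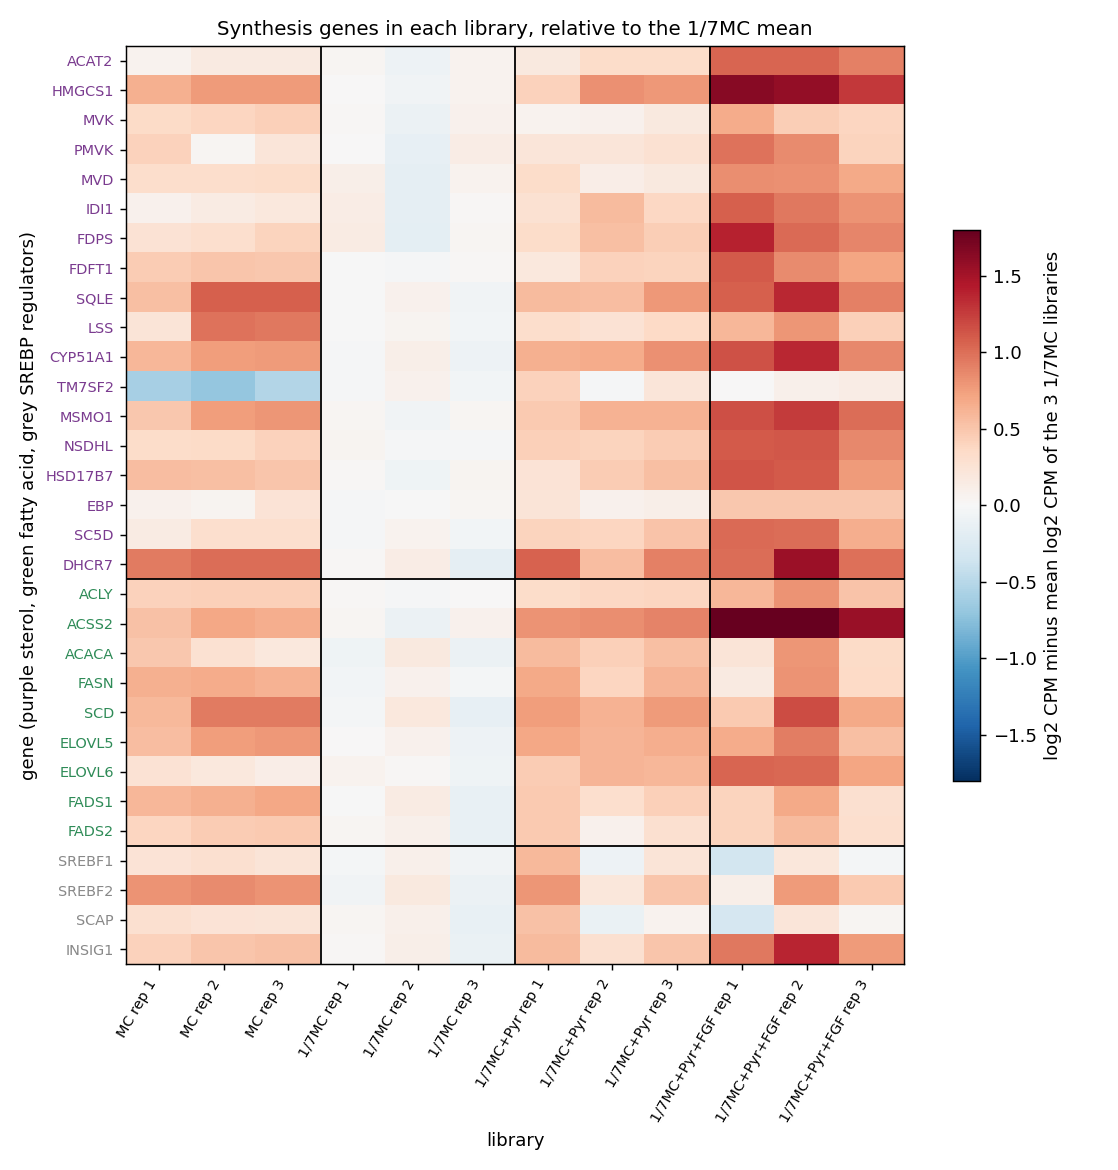
Difference of each gene's log2 CPM from its mean over the 3 1/7MC libraries (colour, log2 units), for the 31 genes in rows ordered by role and the 12 libraries in columns. Most genes are above the 1/7MC mean in the other 9 libraries, TM7SF2 is below it in MC, and HMGCS1 and ACSS2 are the darkest in 1/7MC+Pyr+FGF.

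In 1/7MC compared with MC, 20 of the 31 genes fell and 1 rose. The fall covered 11 of the 18 sterol genes, 7 of the 9 fatty acid genes and 2 of the 4 regulators. Medians of the log2 fold change were -0.37 for the sterol branch, -0.62 for the fatty acid branch and -0.37 for the regulators, beside 0.00 for all genes tested. Of all genes tested, 21.3% were called lower and 23.7% higher in this comparison. With MC replicate 1 alone, 11 genes fell and 1 rose, namely 6 sterol genes, 4 fatty acid genes and SREBF2 lower and TM7SF2 higher, where 9.96% of all genes were called lower and 14.0% higher. Those 12 calls became 4, 9 and 4 without replicate 1, 2 or 3 of 1/7MC, and HMGCS1, TM7SF2 and DHCR7 were called in all 3 cases. With all MC libraries, each of the 21 calls was kept when any 1 library of the 2 groups was left out.

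Within the sterol branch, DHCR7, the reductase that finishes cholesterol, had the largest fall. It stood at 461, 484 and 483 CPM in MC replicates 1 to 3, at 246, 265 and 217 in 1/7MC, at 503, 354 and 453 in 1/7MC+Pyr, and at 488, 702 and 480 in 1/7MC+Pyr+FGF. The 3 libraries of 1/7MC were lower than every other library, and the other groups overlapped. Its log2 fold change in 1/7MC was -0.97 ± 0.16 (edgeR adjusted p = 0.00034), and -0.91 ± 0.23 against MC replicate 1 alone (edgeR adjusted p = 0.0095). SQLE, which makes squalene epoxide and is a slow step of the pathway, stood at 214, 309 and 311 CPM in MC, 145, 155 and 141 under 1/7MC, 219, 216 and 251 under 1/7MC+Pyr, and 310, 376 and 276 under 1/7MC+Pyr+FGF. Here MC replicate 1 lay apart from MC replicates 2 and 3, and the fall of -0.92 ± 0.15 (edgeR adjusted p = 0.00032) shrank to -0.53 ± 0.17 against MC replicate 1 alone (edgeR adjusted p = 0.035). CYP51A1, the lanosterol demethylase, stood at 228, 252 and 255 CPM in MC, 147, 162 and 141 under 1/7MC, 233, 238 and 266 under 1/7MC+Pyr, and 331, 382 and 274 under 1/7MC+Pyr+FGF. Its fall in 1/7MC was -0.71 ± 0.12 (edgeR adjusted p = 0.00039), without overlap of the 2 groups.

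Of the 7 mevalonate genes, HMGCS1, MVK and MVD fell. HMGCS1 stood at 813, 891 and 889 CPM in MC, 527, 499 and 545 under 1/7MC, 699, 929 and 898 under 1/7MC+Pyr, and 1630, 1564 and 1259 under 1/7MC+Pyr+FGF. Its fall was -0.72 ± 0.12 (edgeR adjusted p = 0.00047), and -0.62 ± 0.18 against MC replicate 1 alone (edgeR adjusted p = 0.02). MVK, the mevalonate kinase, stood at 138, 142 and 145 CPM in MC, 110, 101 and 115 under 1/7MC, 113, 115 and 122 under 1/7MC+Pyr, and 173, 148 and 142 under 1/7MC+Pyr+FGF. Both 1/7MC and 1/7MC+Pyr were below MC for MVK, and its fall of -0.38 ± 0.09 in 1/7MC lost its call against MC replicate 1 alone (edgeR adjusted p = 0.11), as did that of MVD at -0.32 ± 0.09 (edgeR adjusted p = 0.16). ACAT2, which joins the first acetyl units, PMVK, IDI1 and FDPS had fold changes of -0.13, -0.23, -0.14 and -0.32 and were not called. After farnesyl pyrophosphate, FDFT1 (-0.48 ± 0.10), which makes squalene, and LSS (-0.76 ± 0.16), which closes the ring of lanosterol, fell. So did MSMO1 (-0.68 ± 0.10), NSDHL (-0.36 ± 0.08) and HSD17B7 (-0.53 ± 0.11), the enzymes that strip methyl groups from the ring. FDFT1 and NSDHL were not called against MC replicate 1 alone (edgeR adjusted p = 0.056 and 0.099). EBP (-0.13 ± 0.09) and SC5D (-0.25 ± 0.10), late enzymes that move or add a double bond, were not called.

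TM7SF2, a sterol reductase whose activity overlaps that of the lamin B receptor LBR, went the other way. It stood at 20.7, 19.2 and 21.7 CPM in MC, 30.8, 32.9 and 30.2 under 1/7MC, 41.5, 30.9 and 36.3 under 1/7MC+Pyr, and 31.5, 33.2 and 34.1 under 1/7MC+Pyr+FGF. Every library outside MC was above the 3 of MC. The rise in 1/7MC was 0.60 ± 0.11 (edgeR adjusted p = 0.00083), and 0.60 ± 0.18 against MC replicate 1 alone (edgeR adjusted p = 0.024).

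The gap of MC replicate 1 from the mean of MC replicates 2 and 3 was taken for each gene. In 3 of the 31 genes it was wider than that of any library in another group from the mean of its other 2 replicates. These were LSS (-0.73 in log2 CPM), SQLE (-0.53) and MSMO1 (-0.29). The share of all genes with so wide a gap was not counted. The median size of the gap was 0.088 over the 31 genes and 0.176 over the 13898 genes tested with a symbol. LSS stood at 72.0 CPM in MC replicate 1 and at 120 and 119 in replicates 2 and 3, and its fold change in 1/7MC was -0.22 ± 0.15 against MC replicate 1 alone, with no call (edgeR adjusted p = 0.33).

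**Figure D2:**
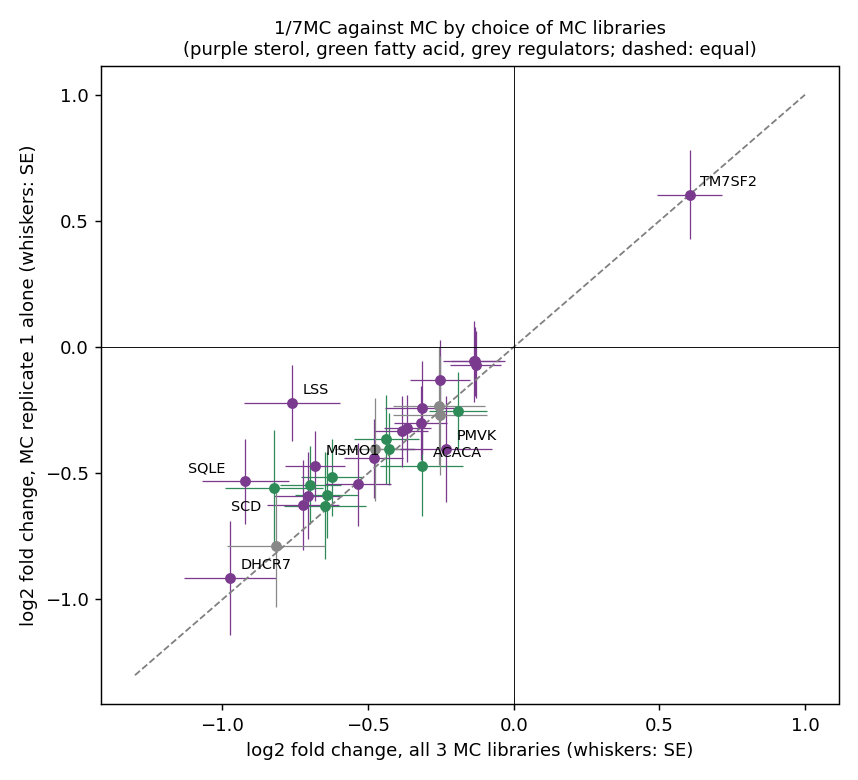
Log2 fold change of each of the 31 genes in 1/7MC against all 3 MC libraries (x axis) and against MC replicate 1 alone (y axis), with SE as whiskers. Most points lie near the dashed line of equal values, LSS (-0.76 and -0.22) and SQLE (-0.92 and -0.53) lie above it, and TM7SF2 is the single gene at the upper right.

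The fatty acid genes fell in 1/7MC except ACACA and ELOVL6, which were not called. SCD stood at 1616, 2082 and 2073 CPM in MC, 1056, 1239 and 974 under 1/7MC, 1835, 1676 and 1835 under 1/7MC+Pyr, and 1505, 2453 and 1733 under 1/7MC+Pyr+FGF. The 3 libraries of 1/7MC were the lowest of the 12. SCD fell by 0.82 ± 0.17 on the log2 scale (edgeR adjusted p = 0.0017), but its fold change of -0.56 ± 0.23 against MC replicate 1 alone was not called (edgeR adjusted p = 0.093). FASN stood at 2380, 2438 and 2355 CPM in MC, 1481, 1612 and 1491 under 1/7MC, 2452, 1989 and 2339 under 1/7MC+Pyr, and 1716, 2674 and 1967 under 1/7MC+Pyr+FGF. FASN was again lowest in 1/7MC, with a fold change of -0.65 ± 0.14 (edgeR adjusted p = 0.0026), and of -0.63 ± 0.21 against MC replicate 1 alone (edgeR adjusted p = 0.046). ACACA, the carboxylase that makes malonyl-CoA and the committed step of the branch, stood at 338, 290 and 274 CPM in MC, 228, 273 and 224 under 1/7MC, 356, 324 and 350 under 1/7MC+Pyr, and 283, 417 and 305 under 1/7MC+Pyr+FGF. ACACA in 1/7MC replicate 2 nearly reached MC replicate 3, and its fold change of -0.32 ± 0.14 was not called (edgeR adjusted p = 0.087). ACSS2, FADS1 and ELOVL5 fell by 0.62 ± 0.10, 0.64 ± 0.11 and 0.70 ± 0.10, also with a call against MC replicate 1 alone. ACLY (-0.43 ± 0.08) and FADS2 (-0.44 ± 0.11) fell against all 3 MC libraries only. FADS2, a desaturase of polyunsaturated acids, stood at 447, 474 and 477 CPM in MC, 353, 367 and 313 under 1/7MC, 477, 363 and 421 under 1/7MC+Pyr, and 454, 512 and 424 under 1/7MC+Pyr+FGF, so that 1/7MC and 1/7MC+Pyr overlapped.

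Among the regulators SREBF2 and INSIG1 fell. SREBF2, the factor tied to the sterol genes, stood at 691, 712 and 691 CPM in MC, 378, 447 and 367 under 1/7MC, 688, 456 and 557 under 1/7MC+Pyr, and 427, 670 and 550 under 1/7MC+Pyr+FGF. The 3 MC libraries were close together and the libraries of 1/7MC+Pyr and 1/7MC+Pyr+FGF spread over most of the range between MC and 1/7MC. The fold change in 1/7MC was -0.82 ± 0.17 (edgeR adjusted p = 0.0018), and -0.79 ± 0.24 against MC replicate 1 alone (edgeR adjusted p = 0.029). INSIG1 stood at 125, 132 and 134 CPM in MC, 94.7, 101 and 85.9 under 1/7MC, 139, 115 and 132 under 1/7MC+Pyr, and 181, 242 and 159 under 1/7MC+Pyr+FGF. INSIG1 was lowest in 1/7MC and highest in 1/7MC+Pyr+FGF, each without overlap with another group, and its fold change in 1/7MC of -0.48 ± 0.14 (edgeR adjusted p = 0.013) was not called against MC replicate 1 alone (edgeR adjusted p = 0.17). SREBF1, the factor tied more to the fatty acid genes, stood at 204, 211 and 202 CPM in MC, 168, 184 and 165 under 1/7MC, 257, 161 and 202 under 1/7MC+Pyr, and 136, 198 and 168 under 1/7MC+Pyr+FGF. SCAP stood at 107, 104 and 103 CPM in MC, 90.5, 93.7 and 80.2 under 1/7MC, 127, 80.7 and 92.1 under 1/7MC+Pyr, and 71.3, 102 and 89.9 under 1/7MC+Pyr+FGF. Neither SREBF1 nor SCAP was called in any of the 6 comparisons, and their 1/7MC+Pyr and 1/7MC+Pyr+FGF libraries overlapped those of 1/7MC.

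In bulk RNA, fewer cells of a type and less RNA per cell cannot be told apart. In 1/7MC against MC, 26 of 26 fibroblast and feeder markers rose, with a median log2 fold change of 2.02, and 7 of the 8 embryonic stem cell markers fell, with a median of -0.71. Of the 7 neural and eye field markers 4 rose and 2 fell, and APOA1 rose by 0.66. TTR, at most 0.0638 CPM in MC and 1.70 CPM in 1/7MC, rose by 5.38 ± 0.58. Their part in the fall of the synthesis genes was not tested. Marker counts in comparisons with MC, here and below, rest on all 3 MC libraries. Against MC replicate 1 alone, MMP2 and COL5A2 had fold changes of 0.63 ± 0.27 and 0.78 ± 0.27 in 1/7MC. POU5F1, RAX and SIX3 had -0.51 ± 0.18, -0.68 ± 0.31 and -0.44 ± 0.19. The SE of each of these genes was wider than against all 3 MC libraries, so the marker counts need not hold there.

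Adding Pyr, read here as pyruvate from the series title (1/7MC+Pyr against 1/7MC), came with higher synthesis genes in both branches. Of the 31 genes 21 rose, against 8.08% of all genes tested called higher and 10.1% called lower. They were 12 of the 18 sterol genes, 8 of the 9 fatty acid genes and INSIG1, with median log2 fold changes of 0.42, 0.56 and, over the 4 regulators, 0.36, beside -0.01 for all genes tested. None fell by edgeR, at an unadjusted p under 0.05 or by DESeq2, while 24 were higher at an unadjusted p under 0.05.

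ACSS2, which makes acetyl-CoA from acetate, and DHCR7 had the largest rises. ACSS2 stood at 71.7, 80.2 and 78.3 CPM in MC, 50.9, 46.1 and 52.5 under 1/7MC, 86.8, 89.3 and 92.3 under 1/7MC+Pyr, and 180, 192 and 146 under 1/7MC+Pyr+FGF. No 2 of the 4 groups overlapped for ACSS2. Its rise with pyruvate was 0.84 ± 0.10 (edgeR adjusted p = 0.00019) and that of DHCR7 0.85 ± 0.16 (edgeR adjusted p = 0.0029). Of the sterol genes, CYP51A1 (0.71 ± 0.12), HMGCS1 (0.68 ± 0.12), SQLE (0.64 ± 0.15) and MSMO1 (0.58 ± 0.10) followed. ACAT2, IDI1, FDPS, FDFT1, NSDHL, HSD17B7 and SC5D rose by 0.28 to 0.44. MVK, PMVK, MVD, LSS, TM7SF2 and EBP, with fold changes of 0.10 to 0.31, were not called. In the fatty acid branch SCD (0.71 ± 0.17), ELOVL5 (0.65 ± 0.10), FASN (0.56 ± 0.14), ELOVL6 (0.56 ± 0.10) and ACACA (0.51 ± 0.14) rose, as did FADS1 (0.40 ± 0.11) and ACLY (0.36 ± 0.08). FADS2 at 0.29 ± 0.11 was not called (edgeR adjusted p = 0.097). INSIG1 rose by 0.45 ± 0.14 (edgeR adjusted p = 0.038), and SREBF2 at 0.51 ± 0.17 was just outside the threshold (edgeR adjusted p = 0.051).

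The number of genes that rose with pyruvate depended on single libraries. It was 14, 15 and 9 without replicate 1, 2 or 3 of 1/7MC and 17, 18 and 10 without replicate 1, 2 or 3 of 1/7MC+Pyr. The 9 genes called in all of these fits were HMGCS1, CYP51A1, MSMO1, NSDHL, DHCR7, ACLY, ACSS2, ELOVL5 and ELOVL6. In the same comparison 7 of the 8 embryonic stem cell markers rose (median 0.74), 7 of the 26 fibroblast and feeder markers rose and 7 fell, and 5 of 7 neural and eye field markers fell (median -2.88). Their part in the rise was not tested.

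Adding FGF on top of pyruvate (1/7MC+Pyr+FGF against 1/7MC+Pyr) came with higher sterol genes. Of the 31 genes 13 rose, namely 11 of the 18 sterol genes, ACSS2 and INSIG1. Only 0.639% of all genes tested were called higher and 2.12% lower, so the 13 made up 14.6% of the 89 genes called higher, and 41.9% of the 31. None fell by edgeR, at an unadjusted p under 0.05 or by DESeq2. Median log2 fold changes were 0.53 in the sterol branch, 0.09 in the fatty acid branch and -0.12 over the regulators, beside 0.01 for all genes tested. At an unadjusted p under 0.05, 16 sterol genes, 3 fatty acid genes and 1 regulator were higher. DESeq2 called 15 sterol genes, 3 fatty acid genes and 1 regulator higher, where it called 2.03% of all genes higher.

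The mevalonate steps were most complete, with 6 of 7 genes called. HMGCS1 rose by 0.82 ± 0.12 (edgeR adjusted p = 0.0056), and all 3 libraries with FGF were above the other 9. ACAT2 (0.73 ± 0.08), FDPS (0.67 ± 0.13), MVD (0.58 ± 0.09), IDI1 (0.53 ± 0.11) and MVK (0.40 ± 0.09) rose too, and PMVK at 0.53 ± 0.16 was not called (edgeR adjusted p = 0.096). ACAT2 stood at 217, 241 and 241 CPM in 1/7MC+Pyr and at 396, 399 and 362 with FGF. FDPS, which makes farnesyl pyrophosphate, stood at 292, 336 and 315 CPM in 1/7MC+Pyr and at 603, 470 and 427 with FGF. Neither gene's groups overlapped.

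Of the 11 later sterol genes 5 rose, namely NSDHL (0.60 ± 0.08), HSD17B7 (0.58 ± 0.11), MSMO1 (0.56 ± 0.10), FDFT1 (0.55 ± 0.10) and SC5D (0.47 ± 0.10). SQLE at 0.49 ± 0.15 (edgeR adjusted p = 0.1), CYP51A1 at 0.42 ± 0.12 (edgeR adjusted p = 0.076) and EBP at 0.34 ± 0.09 (edgeR adjusted p = 0.058) were not called, although for each of them all 3 libraries with FGF were above all 3 of 1/7MC+Pyr. DHCR7 at 0.35 ± 0.16 (edgeR adjusted p = 0.25) and LSS at 0.30 ± 0.16 (edgeR adjusted p = 0.33) were not called either, and DHCR7 overlapped between the groups. TM7SF2 had a fold change of -0.14 ± 0.11.

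Among the fatty acid genes ACSS2 had the largest fold change of all 31, at 0.95 ± 0.10 (edgeR adjusted p = 0.00069), or 1.93-fold. ELOVL6, an elongase, at 0.38 ± 0.10 (edgeR adjusted p = 0.064) and ACLY at 0.29 ± 0.08 (edgeR adjusted p = 0.093) were not called. ACACA (-0.04 ± 0.14), FASN (-0.09 ± 0.14), SCD (0.09 ± 0.17), ELOVL5 (0.07 ± 0.10), FADS1 (0.06 ± 0.11) and FADS2 (0.14 ± 0.11) had fold changes smaller than 2 SE. INSIG1 rose by 0.59 ± 0.14 (edgeR adjusted p = 0.04), whereas SREBF1 (-0.30 ± 0.16), SREBF2 (-0.05 ± 0.17) and SCAP (-0.19 ± 0.16) were not called.

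**Figure D3:**
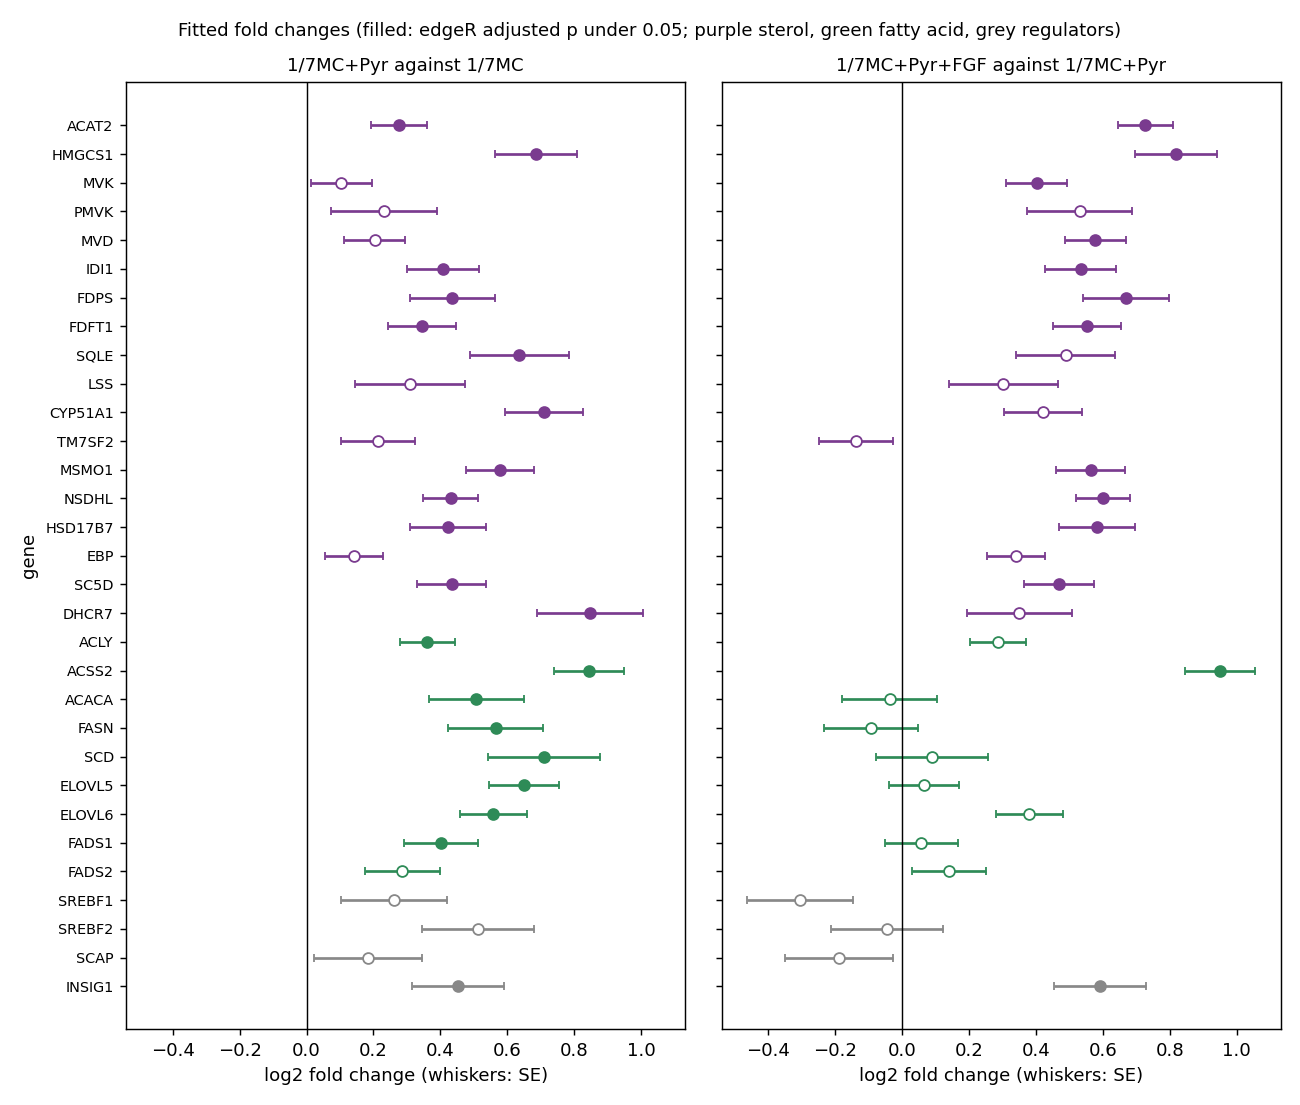
Log2 fold change with SE of the 31 genes for pyruvate (left) and for FGF added to pyruvate (right), ordered by role, with filled points for genes called by edgeR. Filled points span both branches on the left, while on the right they are 11 sterol genes, ACSS2 and INSIG1.

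The number called with FGF was also sensitive to single libraries. It was 5, 10 and 8 without replicate 1, 2 or 3 of 1/7MC+Pyr and 7, 8 and 16 without replicate 1, 2 or 3 of 1/7MC+Pyr+FGF. ACAT2, HMGCS1, MVD, NSDHL and ACSS2 were called in all 6 of these fits. INSIG1, MVK and SC5D were called in the fit without 1/7MC+Pyr+FGF replicate 3 and in none of the other 5. In the fit with MC replicate 1 alone, which alters the estimated spread, INSIG1 and MVK also missed the threshold for FGF (edgeR adjusted p = 0.052 and 0.062).

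Gene length moved with this comparison, and to differing degrees with others. Over all genes tested, the median log2 fold change was 0.15 for genes up to 1500 bases and -0.122 for genes above 5000 bases, and the sterol genes (median length 2176 bases) are shorter than the fatty acid genes (4426 bases). The same 2 medians were -0.0971 and 0.054 in 1/7MC+Pyr against 1/7MC, -0.00919 and 0.15 in 1/7MC against MC, and -0.0941 and 0.17 in 1/7MC+Pyr against MC. The deviation of single libraries from their group mean correlated with length over the 13920 genes, with a Spearman rho of -0.454 in replicate 1 and 0.463 in replicate 2 of 1/7MC+Pyr+FGF. In 1/7MC replicates 1 to 3 rho was -0.348, 0.481 and -0.321, and in MC replicate 1 it was 0.335. With the length trend of each library removed, an alternative chosen after seeing the data, 15 of the 31 genes rose with FGF added to pyruvate. Of these 11 were sterol genes, 3 fatty acid genes and 1 a regulator, where 1.01% of all genes were called higher. The branch medians were then 0.46, 0.14 and -0.06. ELOVL6 at 0.49 (edgeR adjusted p = 0.029) and ACLY at 0.34 (edgeR adjusted p = 0.03) passed the threshold in that fit, beside ACSS2. Of the marker lists, 8 of 26 fibroblast and feeder markers and 3 of 8 embryonic stem cell markers fell with FGF, and APOA1 rose by 0.76 (edgeR adjusted p = 0.00087). TTR, with a fold change of -0.97 ± 0.39, was not called. Their part in the rise of the sterol genes was not tested.

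**Figure D4:**
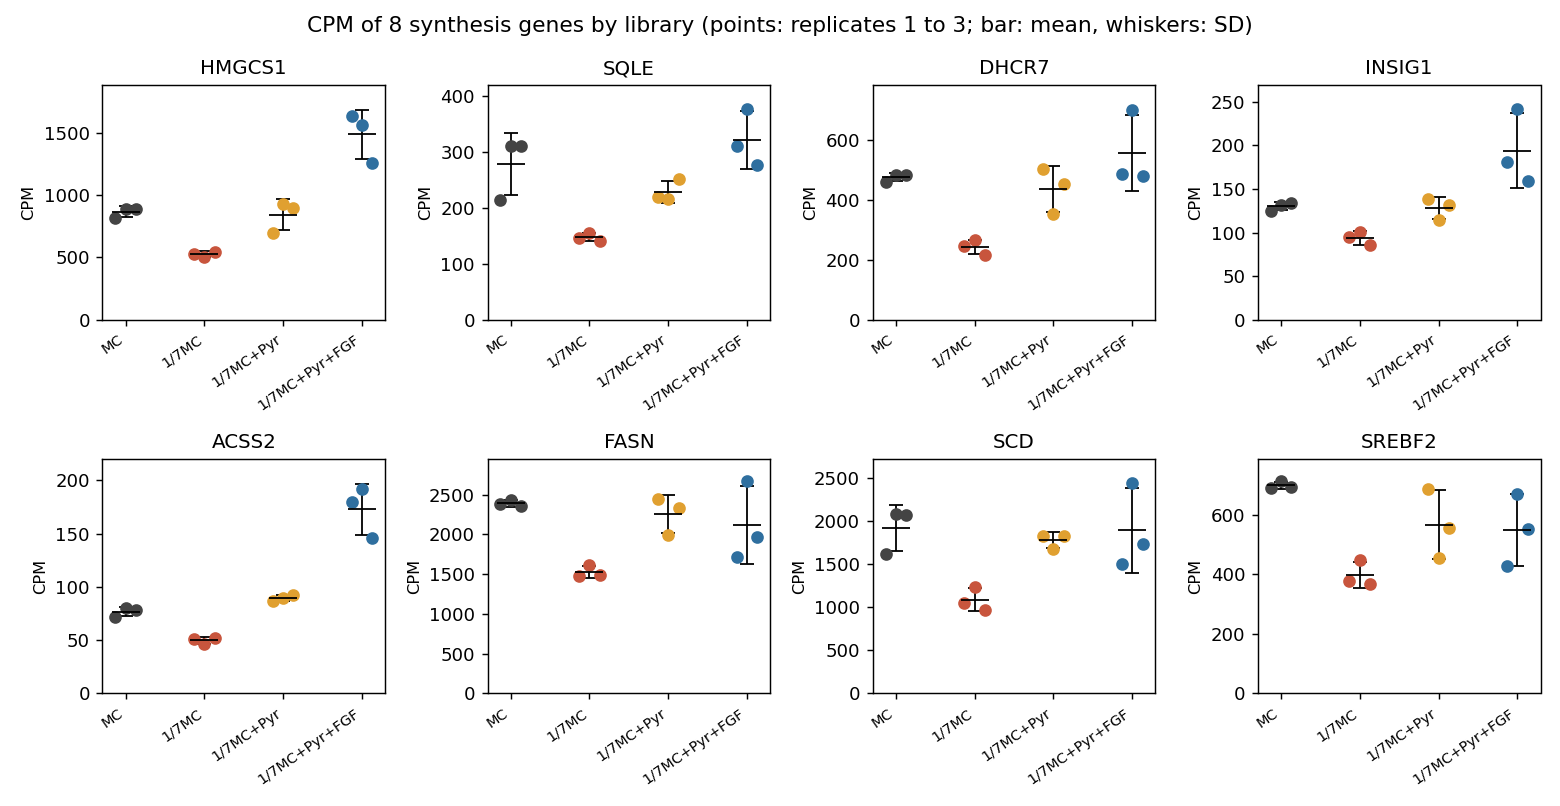
CPM of 8 genes in each library (points, replicates 1 to 3 from left to right), with the group mean as a bar and the SD as whiskers, on axes that start at 0. HMGCS1, INSIG1 and ACSS2 are highest in all 3 libraries with FGF, whereas FASN, SCD, DHCR7 and SREBF2 spread widely there and overlap 1/7MC+Pyr.

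The branches can be set side by side in each library by the median, over a branch, of the log2 CPM relative to the 1/7MC mean. The sterol median was 0.34, 0.37 and 0.42 in MC, 0.33, 0.41 and 0.42 under 1/7MC+Pyr, and 1.06, 1.01 and 0.79 under 1/7MC+Pyr+FGF. The fatty acid median was 0.53, 0.64 and 0.62 in MC, 0.57, 0.43 and 0.60 under 1/7MC+Pyr, and 0.47, 0.81 and 0.52 under 1/7MC+Pyr+FGF. The sterol median was thus clear of all other libraries with FGF, and the fatty acid median was not. The sterol minus the fatty acid median was 0.59, 0.20 and 0.27 in the 3 libraries with FGF and between -0.28 and 0.12 in the other 9. These are descriptions of 12 libraries, and the difference between branches was not tested. The regulator median was 0.57, 0.054 and 0.36 in 1/7MC+Pyr and -0.096, 0.49 and 0.25 with FGF, so the 2 groups overlapped.

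**Figure D5:**
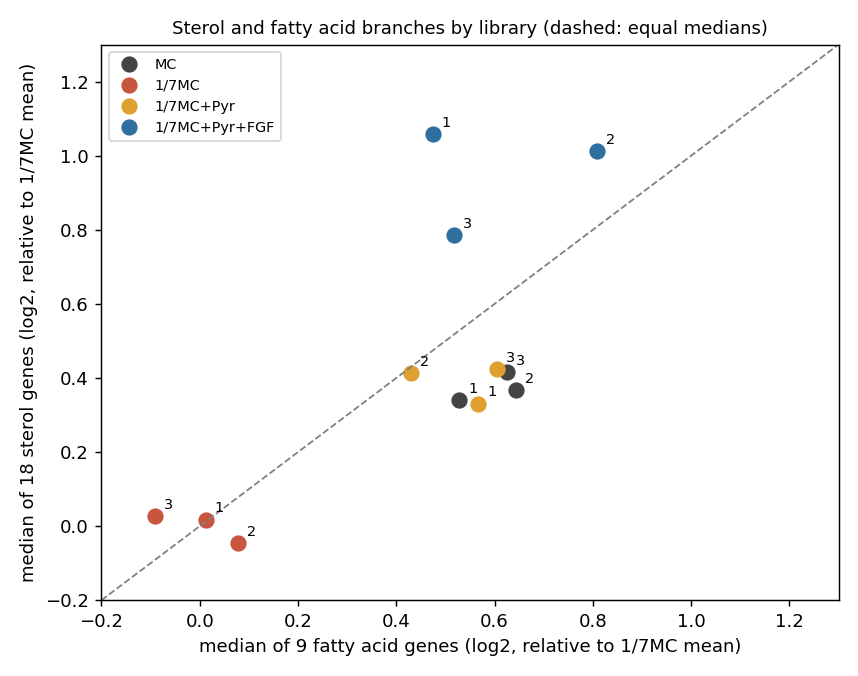
Median log2 CPM relative to the 1/7MC mean of the 9 fatty acid genes (x axis) and the 18 sterol genes (y axis) in each of the 12 libraries, with replicate numbers beside the points and equal medians dashed. The 3 libraries with FGF lie above the line, at sterol medians of 0.79 to 1.06, and MC and 1/7MC+Pyr lie together below it.

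Against MC, the pyruvate group was close and the FGF group was above it in the sterol branch. These comparisons share the MC and the treated libraries with those above and are given for their own values. In 1/7MC+Pyr against MC, 2 genes rose and 1 fell, where 15.2% of all genes were called higher and 13.2% lower. The 3 were TM7SF2 (0.82 ± 0.11), ELOVL6 (0.37 ± 0.10) and MVK (-0.28 ± 0.09), and the medians were -0.02 for the sterol and -0.07 for the fatty acid branch. With MC replicate 1 alone TM7SF2 was the single call (edgeR adjusted p = 0.0093), where 6.56% of all genes were called higher and 3.15% lower. The count of 3 was 5 without MC replicate 1, where LSS and SQLE were called lower too, 2 without 1/7MC+Pyr replicate 1, and 1 without MC replicate 2 or 3 or 1/7MC+Pyr replicate 2 or 3. TM7SF2 was called in each of these fits. A missed threshold does not show that the other genes were equal, and SE against all MC libraries ran up to 0.17. In this comparison 25 of the 26 fibroblast and feeder markers rose (median 2.35) and 5 of the 7 neural and eye field markers fell. Of the embryonic stem cell markers NANOG (0.92 ± 0.15) and PRDM14 (0.27 ± 0.09) rose. LIN28A (-0.44 ± 0.10), EPCAM (-1.96 ± 0.11) and CDH1 (-1.15 ± 0.20) fell, and the others were not called. These calls rest on all 3 MC libraries. The fold changes against MC replicate 1 alone were 1.11 ± 0.22 for NANOG and 0.34 ± 0.14 for PRDM14. They were -0.37 ± 0.16 for LIN28A, -1.79 ± 0.15 for EPCAM and -0.72 ± 0.23 for CDH1. CDH1 stood at 371 CPM in MC replicate 1 and at 561 and 554 in MC replicates 2 and 3.

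In 1/7MC+Pyr+FGF against MC, 17 genes rose, namely 14 sterol genes, ACSS2, ELOVL6 and INSIG1, where 17.1% of all genes were called higher and 15.4% lower. With all 12 libraries none fell by edgeR, at an unadjusted p under 0.05 or by DESeq2. ACSS2 (1.17 ± 0.11), ACAT2 (0.87 ± 0.08), IDI1 (0.81 ± 0.11), FDPS (0.79 ± 0.13) and HMGCS1 (0.78 ± 0.12) had the largest rises. With MC replicate 1 alone 10 rose, 8 of them sterol genes with ACSS2 and ELOVL6, where 5.86% of all genes were called higher and 6.13% lower. ACSS2 (1.25 ± 0.17), ACAT2 (0.92 ± 0.14) and HMGCS1 (0.85 ± 0.19) were among them. FASN (-0.18 ± 0.14), SCD (-0.02 ± 0.17) and FADS1 (-0.18 ± 0.11) were not called against MC, nor were MVK, SQLE, LSS and DHCR7. Without 1/7MC+Pyr+FGF replicate 2, however, FASN (-0.38), FADS1 (-0.30) and SREBF2 (-0.51) were called lower than in MC, and PMVK and CYP51A1 were not called. PMVK lost its call without MC replicate 2 or 3 or 1/7MC+Pyr+FGF replicate 1 as well, LSS was called lower (-0.35) without MC replicate 1, and ACLY higher (0.28) without 1/7MC+Pyr+FGF replicate 3. In this comparison 24 of the 26 fibroblast and feeder markers rose (median 1.90), and 2 of the 8 embryonic stem cell markers rose and 4 fell. Of the 7 neural and eye field markers 5 fell, and APOA1 and the scarce TTR rose by 1.47 and 3.65. Their part in the rise of the synthesis genes was not tested.

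Across both additions (1/7MC+Pyr+FGF against 1/7MC), 27 of the 31 genes rose, where 11.9% of all genes were called higher and 15.7% lower. They were 17 of the 18 sterol genes, all 9 fatty acid genes and INSIG1. Again none fell by edgeR, at an unadjusted p under 0.05 or by DESeq2. ACSS2 rose by 1.79 ± 0.11, or 3.47-fold, and DHCR7 by 1.20 ± 0.16. HMGCS1 rose 2.83-fold (edgeR adjusted p = 6.8e-06). The smallest rises were those of FADS2 (0.43 ± 0.11), FADS1 (0.46 ± 0.11), FASN (0.47 ± 0.14) and ACACA (0.47 ± 0.14). TM7SF2 (0.08 ± 0.11), SREBF1, SCAP and SREBF2 (0.47 ± 0.17, edgeR adjusted p = 0.054) were not called. FASN and ACACA lost their calls without 1/7MC replicate 1 or 3 or 1/7MC+Pyr+FGF replicate 2, LSS without either of the last 2 libraries and FADS2 without 1/7MC replicate 3, while SREBF2 was called without 1/7MC+Pyr+FGF replicate 1. In this comparison 1 of the 26 fibroblast and feeder markers rose and 9 fell, 6 of the 8 embryonic stem cell markers rose and 1 fell, and 5 of the 7 neural and eye field markers fell.

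Other genes of sterol handling were taken from lists, whose counts stand beside the 23.7% of all genes called higher and 21.3% lower in 1/7MC against MC, and the 8.08% and 10.1% with pyruvate. Of 8 uptake and feedback genes with an entry, 2 fell and 1 rose in 1/7MC against MC, and 2 rose with pyruvate. TMEM97, a sterol-linked membrane protein, fell by 1.47 ± 0.09 in 1/7MC and was not called with pyruvate (0.09 ± 0.09) or FGF (-0.19 ± 0.09). INSIG2 rose in 1/7MC by 1.16 ± 0.19. Against MC replicate 1 alone the fold changes were -1.35 ± 0.13 for TMEM97 and 0.82 ± 0.22 for INSIG2, both called. With FGF, edgeR called 0 of these 8 genes, 3 were higher at an unadjusted p under 0.05 and DESeq2 called 1 higher.

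Of 8 efflux and storage genes, 2 rose and 2 fell in 1/7MC, and 1 rose and 2 fell with pyruvate. In 1/7MC against MC this list was thus near the share of all genes. ABCG1, an exporter of cholesterol, stood at 2.97, 1.31 and 1.37 CPM in MC, 9.34, 10.7 and 8.89 under 1/7MC, 1.64, 2.16 and 1.74 under 1/7MC+Pyr, and 1.12, 1.33 and 2.01 with FGF. It was thus high in 1/7MC and low elsewhere, with fold changes of 2.34 ± 0.30 in 1/7MC against MC and -2.38 ± 0.30 with pyruvate. Against MC replicate 1 alone the rise was smaller, at 1.71 ± 0.31 (edgeR adjusted p = 0.0012). ABCA1, of the same list, stood higher than ABCG1, at 117 to 294 CPM over the 12 libraries. Its fold changes of 0.50 ± 0.20 in 1/7MC (edgeR adjusted p = 0.056) and 0.11 ± 0.20 with pyruvate were not called. NR1H2, NR1H3 and MYLIP were not called in these comparisons either, so the course of ABCG1 does not stand for the list. SOAT1, which esterifies cholesterol for storage, rose by 0.52 ± 0.09 with pyruvate. Of 5 genes that act in the turnover of the enzymes, 1 rose and 1 fell in 1/7MC and 1 rose with pyruvate.

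Of 9 fatty acid oxidation genes, 4 rose and 2 fell in 1/7MC against MC, and with pyruvate 6 fell. None rose with pyruvate by edgeR, 1 was higher at an unadjusted p under 0.05 and DESeq2 called 1 higher. ACADVL, the dehydrogenase for very long chains, stood at no more than 28.4 CPM in MC, 59.3, 57.9 and 63.9 under 1/7MC, 38.4, 35.6 and 34.7 under 1/7MC+Pyr, and 34.0, 28.1 and 38.9 with FGF. The 1/7MC libraries were highest, with fold changes of 1.11 ± 0.11 in 1/7MC and -0.74 ± 0.11 with pyruvate. HADHA, a subunit of the trifunctional oxidation enzyme, rose by 0.52 ± 0.09 in 1/7MC and fell by 0.52 ± 0.09 with pyruvate. Against MC replicate 1 alone the rises in 1/7MC were 1.10 ± 0.18 for ACADVL and 0.61 ± 0.15 for HADHA, both called. ACADVL and HADHA thus moved opposite in sign to most synthesis genes in both comparisons, which share the 1/7MC libraries. The 2 oxidation genes that fell in 1/7MC were PPARA (-1.24 ± 0.22) and CPT2 (-0.29 ± 0.09). Against MC replicate 1 alone their fold changes were -1.12 and -0.18. With pyruvate PPARA (0.64 ± 0.22) and CPT2 (0.09 ± 0.09) were not called, so both went in sign with most synthesis genes. Of 18 further fatty acid and glycerolipid genes tested, 5 rose and 4 fell in 1/7MC, and 2 rose and 1 fell with pyruvate, all near the shares of all genes. LPIN1, a phosphatidate phosphatase, and HSD17B12, a reductase of acyl elongation, rose by 0.59 ± 0.12 and 0.66 ± 0.10 with pyruvate. ACSL1 was the 1 that fell with pyruvate (-0.70 ± 0.16). In 1/7MC against MC, LPIN1 (-0.76 ± 0.12) and HSD17B12 (-0.62 ± 0.10) fell, and ACSL1 (1.58 ± 0.17) was among the 5 that rose.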

How the data were processed

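Libraries were made by poly-T selection and random priming, with no step stated that marks strand, per the labels' protocols, so values are uncertain where genes overlap or have near-identical copies. Tools listed in the submitters' processing notes are fastp 0.19.7, HISAT2 2.1.0, featureCounts and Subread 2.0, with the build bosTau9; their order, settings and annotation are not given in the sources used here. The authors deposited raw counts per gene. A second deposited table, headed TPM, gives a signal which equals count over length times 4.94 in every library, is not a TPM, and served only as an alternative, rescaled to equal sums and tested with limma 3.58.1 as log2 of the signal plus 0.01.

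Of 19285 entries, 400 that share an identifier were left out. Symbols came from RefSeq (ARS-UCD2.0) by Entrez identifier (18803 of 18885 kept entries); no coordinates or sequences are given. Counts were tested with edgeR 4.0.16 (filterByExpr, TMM, quasi-likelihood F test, 1 coefficient per group over all 12 libraries, Benjamini-Hochberg over all genes), after a check on simulated data. CPM and RPKM were computed here. DESeq2 1.42.0, other filters and scalings and leaving out libraries were alternatives. R was 4.3.3 and Python 3.11.15. All 31 genes with an entry are named, with values by library for key enzymes, regulators and the largest and smallest pyruvate response per branch. Some genes of the uptake and feedback list are not reported here. ABCG1 and ACADVL were given by library after their values were seen. The set and the other lists were chosen with earlier results of these data known.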

Additional observations from a re-analysis of the deposited data

How the results depend on the processing

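The numbers of synthesis genes called in the 6 comparisons, both directions together, moved by more than 1.5 times under few of the settings that used all libraries. With MC replicate 1 alone the number was 12 instead of 21 for 1/7MC against MC, 1 instead of 3 for 1/7MC+Pyr against MC and 10 instead of 17 for 1/7MC+Pyr+FGF against MC. With the gene length trend removed, a setting added after seeing the data, it was 6 for 1/7MC+Pyr against MC. Correlations of same-numbered libraries' deviations ran from -0.316 to 0.333, and not every library correlated best with its own number. They cannot show whether replicate numbers pair the samples, since the deviations of several libraries also followed gene length. With the replicate block 8 genes were called for 1/7MC+Pyr+FGF against 1/7MC+Pyr instead of 13, and 17 for 1/7MC+Pyr against 1/7MC instead of 21. Leaving out 1 library, with all or 1 of the MC libraries, gave 4 to 22 genes for 1/7MC against MC, 9 to 18 for 1/7MC+Pyr against 1/7MC, 5 to 16 for 1/7MC+Pyr+FGF against 1/7MC+Pyr, 1 to 5 for 1/7MC+Pyr against MC, 10 to 18 for 1/7MC+Pyr+FGF against MC and 23 to 28 for 1/7MC+Pyr+FGF against 1/7MC. No called fold change turned its sign under any setting run. Depth did not limit these genes much, the lowest (PMVK) being at 6.97 CPM or more in each library.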
